A study of Homo sapiens with 9 samples.

Results

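The FAM20 family holds 3 genes that encode proteins of the secretory pathway, FAM20A (gene identifier 54757), FAM20B (9917) and FAM20C (56975). They were chosen by these identifiers, and the family was chosen on the level of FAM20A, which was among the genes most raised in siLATS1 against siControl. All 3 had a row in every file, out of 20575 genes with an identifier. RNA-seq was performed on 9 samples of Huh7, an established human hepatocellular carcinoma (HCC) line, 3 for each siRNA used (siControl, siLATS1 and siLATS2). All were harvested 48 h after transfection with RNAiMAX, and all groups, siControl included, carried a transfected siRNA. The study asked how loss of each of the LATS kinases of the Hippo pathway bears on HCC cells. Its methods call the samples biological triplicates of siRNA-transfected and sorafenib (Srf)-treated cells, whereas the sample labels name only the siRNA, so groups are named here by siRNA. All samples are of 1 cell line.

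FAM20C is the kinase that phosphorylates serines of secreted proteins in the Golgi, among them casein, bone and enamel matrix proteins and many plasma proteins that the liver makes. FAM20A is a pseudokinase: it binds FAM20C and raises its activity, and inherited loss of either disturbs mineralised tissue. FAM20B works on sugar rather than protein. It phosphorylates the xylose through which glycosaminoglycan chains are linked to proteoglycans, and so promotes the growth of heparan and chondroitin sulfate chains.

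The oligonucleotides with which LATS1 was targeted are shown because the group in which FAM20A was highest is defined by them. The study's list of oligonucleotides gives a pool of 4 siRNAs against LATS1. It does not say whether the pool or a single siRNA was used for sequencing. The sense strands are written 5′ to 3′, with bases 12 to 18 in capitals. These 7 bases are the site that pairs with the seed (bases 2 to 8) of the guide strand.
siLATS1-1: ggugaagucugUCUAGCAa
siLATS1-2: uagcauggauuUCAGUAAu
siLATS1-3: gguaguucgucUAUAUUAu
siLATS1-4: gaaugguacugGACAAACu
Each matched the LATS1 transcript exactly at 1 place. On GRCh37, where LATS1 lies on the minus strand, siLATS1-1 matched chr6:150001437-150001455 and siLATS1-3 chr6:150001294-150001312, both in exon 5. siLATS1-2 matched chr6:149997836-149997854 in exon 6, and siLATS1-4 matched chr6:150005163-150005181 in exon 4. No annotated transcript of FAM20A, FAM20B or FAM20C held an exact match to any of the 4. The longest run of bases shared with a FAM20A transcript was 10, by siLATS1-4. In the longest coding transcript of FAM20A the capital letters of siLATS1-2 occurred 1 time and those of the other siRNAs 0 times. Of all 19807 genes, 18.7% held this site of siLATS1-2 in their longest coding transcript. FAM20B held 1 site each for siLATS1-1, siLATS1-2 and siLATS1-4, and FAM20C held 0 for all 4. The shares of all genes for the other sites were 12.9% for siLATS1-1, 21.3% for siLATS1-3 and 16.3% for siLATS1-4. These are matches of letters, not sites of action.

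Values are given as CPM, a gene's reads as a proportion of the reads counted in its sample, scaled between samples by the trimmed mean of M values (TMM). The depth was 23550000 to 32190000 reads per sample. LATS1, the target of siLATS1, was at 107, 56.0 and 67.0 CPM in siControl, at 26.6, 20.0 and 15.7 CPM in siLATS1 and at 54.1, 76.6 and 51.8 CPM in siLATS2. All siLATS1 samples were below all others (log2 fold change against siControl -1.81, SE 0.29, limma, unadjusted p = 0.000244, Benjamini-Hochberg adjusted p = 0.112). The level of LATS2 was not analysed here, so the label siLATS2 was not checked in this way. Hepatocyte-type markers (ALB, AFP, APOA1, APOB, TTR, SERPINA1, TF and HNF4A) were found in all samples, with a summed level of 13400 to 21400 CPM in siControl, 14700 to 19300 CPM in siLATS1 and 11900 to 15900 CPM in siLATS2. The 6 markers of blood, endothelial and connective tissue cells summed to 5.25 to 7.4, 6.42 to 7.98 and 4.71 to 7.4 CPM, with CDH5 under 1 CPM throughout.

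siControl replicate 1 stood apart from all other samples. Across tested genes its Pearson r of log2(CPM + 1) with siControl replicates 2 and 3 was 0.859 and 0.866, and 4369 genes were at 0 reads in it against 3369 to 3804 in the other samples. The difference followed base composition. With tested genes cut into 5 bins of equal size by the GC content of their transcripts, the lowest bin ran from 30.2% to 40.4%. In it the median gene was 0.80 higher on the log2 scale in siControl replicate 1 than in the mean of the other siControl samples, and in the highest bin (57.7% to 73.9%) it was lower, at -2.05. FAM20B, at 43.9% GC, lay in bin 2, whose median difference was 0.52, and its own difference was 0.70. FAM20A, at 53.4% GC, lay in bin 4, with a median of -0.81 and an own difference of -0.15. FAM20C is the most GC-rich of the family, at 64.6%, in the highest bin. Its own difference was -0.20, on few reads, where the 1 added in log2(CPM + 1) outweighs its values. LATS1, at 39.0% GC, lay in the lowest bin with an own difference of 0.795, and its fold change is given on all samples only. Fold changes of the members and medians of the gene lists against siControl are therefore also given without this sample. Base composition was compared within siControl only, and whether the other samples differ in it was not tested. Deviations from the group mean in siControl replicate 1 correlated with those in siLATS1 replicate 1 (r = 0.92). Leaving out siControl replicate 1 thus need not remove all such differences. In bulk RNA a lower value can stand for fewer cells with a transcript or for less transcript per cell, which cannot be told apart.

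The members lay at very different levels. FAM20B was the most abundant, with a mean of 52.8 CPM over the 9 samples, above 78.2% of all genes. FAM20A had a mean of 27.0 CPM, above 66.8% of genes. FAM20C was nearly silent, at 0.322 CPM, and reached 1 CPM in 0 of 9 samples, so that 2 of the 3 members passed the filter on low values and were fitted. Per kilobase of transcript, the scale on which genes can be compared, FAM20B stood at 9.80 ± 3.00 CPM (SD, n = 3) in siControl, FAM20A at 3.04 ± 0.244 and FAM20C at 0.0921 ± 0.0939. In siLATS1 the order of the first pair was turned, with FAM20A at 9.57 ± 1.73 and FAM20B at 8.02 ± 1.60 CPM per kilobase, a difference within the spread of the samples. In siLATS2, FAM20A was at 4.32 ± 0.777 and FAM20B at 8.63 ± 1.29 CPM per kilobase.

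FAM20A, the pseudokinase, lies on chr17:66531254-66597508 of GRCh37 on the minus strand, with 7 annotated transcripts. The canonical one has 11 exons and 4688 bases. It was at 13.2, 15.5 and 14.1 CPM in siControl replicates 1, 2 and 3 (310, 381 and 358 reads). In siLATS1 it was at 45.5, 36.5 and 52.6 CPM (1359, 1029 and 1304 reads), and in siLATS2 at 24.0, 16.7 and 20.1 CPM (780, 470 and 554 reads). The 3 groups did not overlap, in the order siControl, siLATS2, siLATS1. This holds for 0.357% of the 12901 genes tested, and since FAM20A was chosen for its level in siLATS1, nothing is read from its being among them.

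In siLATS1 the mean of FAM20A was 44.9 ± 8.10 CPM (SD, n = 3), against 14.3 ± 1.15 CPM in siControl, a ratio of 3.14. The log2 fold change was 1.57 (SE 0.19), on the scale of log2(CPM + 1), which understates the change of genes with low values. No p is given because FAM20A was chosen on this contrast. By fold change it ranked number 18 from the top of the tested genes, just after C6, the complement component, at 1.61 and just before NPNT, a basement membrane protein, at 1.57. At the threshold of the study's methods, an unadjusted p under 0.05 with a log2 fold change that is 0.58 or more up or down, 1.90% of tested genes were raised and 0.690% lowered in this contrast, and 0.0698% passed with the adjusted p in place of the unadjusted one. Among the markers SERPINA1 was raised in siLATS1 at the unadjusted threshold (log2 fold change 0.69, adjusted p = 0.557, limma), and APOB (-0.74, adjusted p = 0.534) and the endothelial PECAM1 (-0.74, adjusted p = 0.325) were lowered, 3 of 12 markers tested, and SERPINA1 was also raised against siLATS2. Without siControl replicate 1, 0 of 8 hepatocyte-type markers were called in siLATS1 against siControl. PECAM1 was still lowered there (log2 fold change -0.63), as were 2.51% of all tested genes. The part of these markers in the values of FAM20A was not tested. All siLATS1 samples lay above all siControl samples for 5.11% of tested genes. The log2 fold change of FAM20A was 1.59 without siControl replicate 1, and 1.51 to 1.72 over all 20 alternatives.

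In siLATS2 FAM20A is described too, with no p, because the siControl samples that were used in its choice are the reference here as well. The mean in siLATS2 was 20.3 ± 3.64 CPM, 1.42 times that in siControl, and all 3 siLATS2 samples lay above all 3 siControl samples. The log2 fold change was 0.47 (SE 0.19), under the fold threshold. In this contrast 1.86% of tested genes had all siLATS2 samples above all siControl samples, 0.163% were raised and 0.0620% lowered at the unadjusted threshold, and 0% passed at the adjusted one. In limma 109 genes had an unadjusted p under 0.05, and edgeR and DESeq2 on the reads also left 0 genes at the adjusted threshold. The difference of FAM20A was above 0 in all 20 alternatives, from 0.34 without siLATS2 replicate 1 to 0.59 without siLATS2 replicate 2, and was 0.46 without siControl replicate 1.

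Between the siRNAs, FAM20A in siLATS1 was 2.21 times its level in siLATS2, with a log2 fold change of 1.11 (SE 0.19), given with no p because its siLATS1 samples were used in its choice. Over the alternatives this ran from 0.98 to 1.25. All siLATS1 samples lay above all siLATS2 samples for 6.19% of tested genes. In this contrast 1.34% of genes were raised and 0.519% lowered at the unadjusted threshold and 0% passed after adjustment in limma, in which 544 genes had an unadjusted p under 0.05. edgeR also called 0 genes there, and DESeq2 called 100.

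The span of FAM20A overlaps that of PRKAR1A, a regulatory subunit of protein kinase A that is transcribed from the opposite strand, and that of the antisense RNA LINC01482. No annotated exons of FAM20A overlapped exons of these genes. Whether the counting used strand is not stated. PRKAR1A was at 353, 224 and 236 CPM in siControl, 330, 278 and 246 CPM in siLATS1 and 249, 294 and 236 CPM in siLATS2. Its groups overlapped, and its log2 fold change was 0.09 (SE 0.20) in siLATS1 and -0.04 (SE 0.20) in siLATS2 against siControl (adjusted p = 0.970 and 0.957, limma). PRKAR1A thus had more reads than FAM20A in every sample and did not follow its order. The level of LINC01482 is not given here, and the part of the overlap in the reads of FAM20A was not tested.

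**Figure D1:**
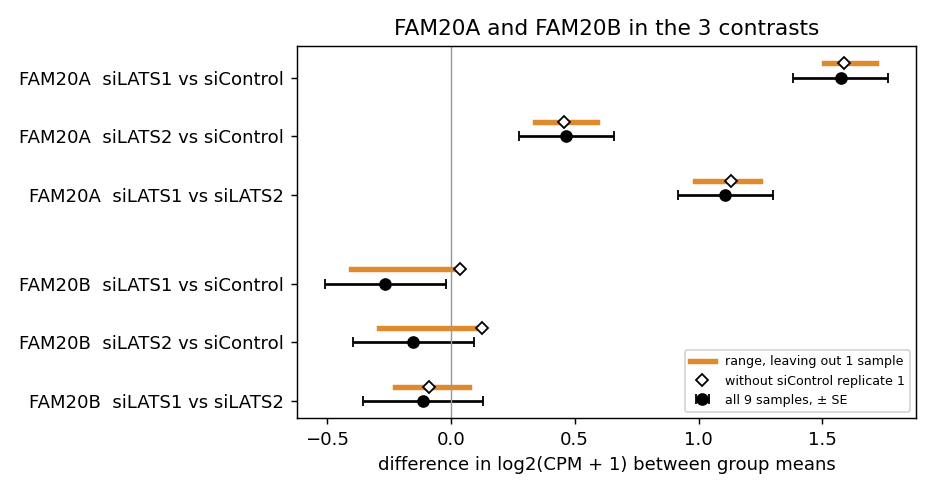
Difference in log2(CPM + 1) between group means for FAM20A and FAM20B in the 3 contrasts (vs: against). Circles are the fit on all 9 samples with SE, orange bars the range over fits that leave out 1 sample, and diamonds the fit without siControl replicate 1. FAM20A lay above 0 in every fit, with 1.57, 0.47 and 1.11 on all samples, whereas FAM20B, at -0.26, -0.15 and -0.11, crossed 0 in each contrast when single samples were left out.

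FAM20B, the xylose kinase, lies on chr1:178994939-179045702 on the plus strand, with a canonical transcript of 8 exons and 5991 bases. A processed pseudogene, FAM20BP1, lies on chromosome 3, and reads that fit both places equally were not kept by the authors. FAM20B was at 79.4, 47.0 and 49.8 CPM in siControl (1859, 1154 and 1268 reads). In siLATS1 it was at 56.8, 49.6 and 37.8 CPM (1698, 1398 and 936 reads), and in siLATS2 at 50.3, 60.1 and 44.7 CPM (1635, 1690 and 1233 reads). All 3 groups overlapped, and the highest value was that of siControl replicate 1, the sample with a surplus of AT-rich transcripts.

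The group means of FAM20B were 58.7 ± 18 CPM in siControl, 51.7 ± 7.76 CPM in siLATS2 and 48.1 ± 9.61 CPM in siLATS1 (SD, n = 3). No neighbours in this order differed beyond their spread. Against siControl the log2 fold change was -0.15 in siLATS2 (SE 0.24, 95% confidence interval -0.71 to 0.41, limma, adjusted p = 0.919, exact permutation p = 0.7). Between siLATS1 and siLATS2 it was -0.11 (SE 0.24, 95% confidence interval -0.67 to 0.45, adjusted p = 1, exact permutation p = 0.6). The intervals leave room for a change of up to about the fold threshold in either direction, so that equal levels are not shown. For siLATS1 relative to siControl the value was -0.26 (SE 0.24), given with no p because this contrast was used in choosing the family. The sign against siControl rested on siControl replicate 1: without it the log2 fold change was 0.04 in siLATS1 and 0.13 in siLATS2.

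FAM20C, the active kinase, lies on chr7:192969-300711 on the plus strand, and its longest coding transcript has 10 exons and 2751 bases. Its reads could be counted one by one. There were 3, 2 and 14 in siControl, 11, 11 and 21 in siLATS1 and 7, 6 and 2 in siLATS2. Summed over the 3 samples of each group these are 19 reads (95% Poisson interval 11.4 to 29.7), 43 reads (31.1 to 57.9) and 15 reads (8.40 to 24.7), or 0.248, 0.544 and 0.169 CPM. These intervals cover counting error only. In CPM after TMM scaling FAM20C was at 0.128, 0.0814 and 0.550 in siControl, 0.368, 0.390 and 0.848 in siLATS1 and 0.215, 0.213 and 0.0726 in siLATS2. siLATS1 overlapped with siControl through siControl replicate 3, and lay above siLATS2 in all samples. Among tested genes, which do not include FAM20C, all siLATS1 samples lay above all siLATS2 samples for 6.19%.

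The ratio of pooled FAM20C CPM in siLATS1 to that in siLATS2 was 3.21 (95% interval 1.75 to 6.23 from counting error). The exact two-sided permutation test over samples gave p = 0.1, the smallest possible for 3 against 3. In fits with no filter on low values, limma gave an unadjusted p of 0.0363 and an adjusted p of 0.947, edgeR 0.0415 and 1, and DESeq2 0.0400 and 1. FAM20C therefore did not pass after adjustment over all genes. The ratio of siLATS2 to siControl was 0.682 (0.322 to 1.42), with an exact permutation p of 0.8. For siLATS1 against siControl the ratio was 2.19 (1.25 to 3.98), a description with no test. Of the 19 siControl reads, 14 were in siControl replicate 3. Without that sample the log2 ratio of mean CPM, with no 1 added, grew from 1.08 to 2.38 in siLATS1. In siLATS2 it turned from -0.60 to 0.68. Without siControl replicate 1 these values were 0.85 and -0.85. They cannot be set beside the fold changes of FAM20A and FAM20B, which are on log2(CPM + 1). On that scale, with no filter, FAM20C was at 0.31 in siLATS1 and -0.07 in siLATS2 against siControl. At this depth no change of FAM20C in siLATS2 was detectable.

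Because the proportions of the family within a sample do not depend on how samples are scaled, they were set out as shares of the reads of the 3 genes. FAM20A made up 14.3%, 24.8% and 21.8% of these reads in siControl replicates 1, 2 and 3. The shares were 44.3%, 42.2% and 57.7% in siLATS1 and 32.2%, 21.7% and 31.0% in siLATS2. FAM20A and FAM20B thus moved from about 1 FAM20A read for several FAM20B reads towards similar numbers: reads of FAM20A per read of FAM20B were 0.167 to 0.330 in siControl, 0.736 to 1.39 in siLATS1 and 0.278 to 0.477 in siLATS2. In siLATS1 replicate 3 FAM20A outnumbered FAM20B. The lowest ratio was that of siControl replicate 1, the highest siControl ratio overlapped with siLATS2, and no siControl or siLATS2 sample reached the siLATS1 range. FAM20C never exceeded 0.929% of the family's reads, and there were 25.6 to 277 reads of FAM20A for each read of FAM20C. A difference that follows base composition is not removed in such shares. In siControl replicate 1 FAM20B was 0.70 above and FAM20A 0.15 below the mean of the other siControl samples, on the log2 scale. As FAM20A was chosen for siLATS1, these shares are a description.

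**Figure D2:**
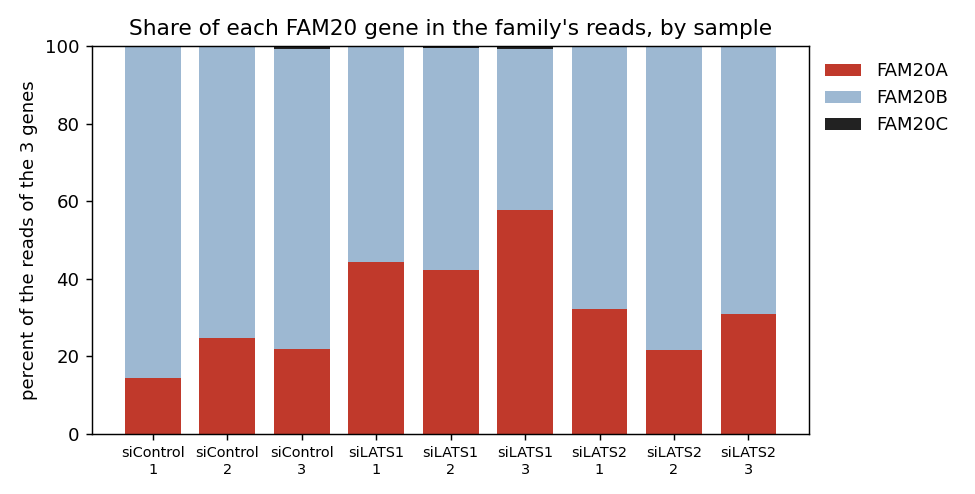
Share of FAM20A (red), FAM20B (light blue) and FAM20C (black, at most 0.929%) in the reads of the 3 genes, in percent, for each of the 9 samples. FAM20A took 42.2% to 57.7% in siLATS1, against 14.3% to 24.8% in siControl and 21.7% to 32.2% in siLATS2.

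The genes whose pattern over the 9 samples was most like that of each fitted member were looked for by Pearson's r of log2(CPM + 1) among all tested genes. For FAM20A these were ITIH1, a heavy chain of the inter-alpha-trypsin inhibitor, with r = 0.991, the non-coding OSER1-DT (r = 0.986), the collagen IV chain COL4A4, the arylsulfatase ARSD and SERPING1, the C1 inhibitor (r = 0.985 each). All 5 were highest in siLATS1 and lowest in siControl by group mean. ITIH1 went from 0.274 CPM in siControl through 0.692 CPM in siLATS2 to 3.06 CPM in siLATS1, and SERPING1 from 2.29 through 3.66 to 19.9 CPM. COL4A4 was at 9.44, 12.2 and 22.4 CPM. For ARSD the same means were 31.8, 33.4 and 40.8 CPM, a much smaller range, and for OSER1-DT 2.52, 2.70 and 3.46 CPM. FAM20B was most like TMEM68 (r = 0.996), BBS7 (r = 0.994), CCNJ and AFG2A (r = 0.992 each) and MCUR1 (r = 0.991). Their group means were highest in siControl, as for FAM20B, with TMEM68 at 17.8 CPM in siControl, 14.1 CPM in siLATS1 and 14.9 CPM in siLATS2. These values are a description over 9 samples that share groups, libraries and base composition, and they are the highest of 12901. The lists of most similar genes of the 2 members had no gene in common.

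Other kinases and kinase-like proteins of the secretory pathway were counted beside the family. Of 10 listed genes, 8 were in the files and 5 were tested, and 0 of 5 were raised or lowered at the unadjusted threshold in any contrast. Their median log2 fold change was 0.10 in siLATS1 and -0.07 in siLATS2 against siControl, where the median of all tested genes was -0.01 and 0.00. Without siControl replicate 1 the medians of the list were 0.01 and -0.18. The most abundant was DIPK2A at 130 ± 59.4 CPM in siControl, 117 ± 43.9 CPM in siLATS1 and 93.3 ± 36.0 CPM in siLATS2 (adjusted p = 0.970 and 0.919, limma). PKDCC, a secreted tyrosine kinase, was at 39.8 ± 27.4, 49.0 ± 14.4 and 41.7 ± 11 CPM, and DIPK1B at 32.7 ± 22.1, 31.1 ± 10.8 and 34.5 ± 8.66 CPM. In both, the wide siControl spread came with a lowest sample of 8.24 and 7.18 CPM. At the unadjusted threshold at most 1.90% of all tested genes were raised and 0.690% lowered in any contrast. With so few genes, 0 of 5 is not read as a result about the list. FJX1 and GASK1A, which belong to the same wider family, had at most 5 and 3 reads in any sample.

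The enzymes that build, modify or extend the glycosaminoglycan linker are the partners of FAM20B. All 18 listed genes were in the files and 17 were tested. At the unadjusted threshold 0 of 17 passed in any contrast, where at most 1.90% of all tested genes were raised and 0.690% lowered. The median log2 fold change of the list was 0.27 in siLATS1 and 0.23 in siLATS2 against siControl, with 11 and 14 of 17 above 0. It was 0.01 between siLATS1 and siLATS2. Without siControl replicate 1 the medians against siControl were -0.05 and -0.03, and 1 gene, the xylose phosphatase PXYLP1, which removes the phosphate that FAM20B adds, was raised at the unadjusted threshold in siLATS1 (log2 fold change 0.68, adjusted p = 0.282, limma), where 2.80% of all tested genes were. In the fit on all samples PXYLP1 was at 0.44. The most abundant of the list were UGDH, which makes UDP-glucuronic acid, at 188 ± 41.7, 169 ± 32.6 and 163 ± 13.1 CPM in siControl, siLATS1 and siLATS2, the heparan sulfate polymerase EXT1 at 105 ± 24.6, 127 ± 5.67 and 121 ± 4.55 CPM, and UXS1, which makes UDP-xylose, at 92.1 ± 4.11, 78.1 ± 4.08 and 85.5 ± 5.53 CPM. UXS1 had the lowest p of these, 0.0644 in siLATS1 (adjusted p = 0.871). Of the xylosyltransferases that lay down the substrate of FAM20B, XYLT1 had at most 2 reads in any sample, whereas XYLT2 was tested, with a log2 fold change of 0.35 in siLATS1 and 0.54 in siLATS2.

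Core proteins of proteoglycans carry the chains that FAM20B promotes. Of 20 listed genes 19 were in the files and 13 were tested. At the unadjusted threshold 0 of 13 passed in any contrast, where at most 1.90% of all tested genes were raised and 0.690% lowered. The median log2 fold change of the list was 0.30 in siLATS1 and 0.17 in siLATS2 against siControl, and it was -0.04 and 0.03 without siControl replicate 1. GPC3, a glypican of fetal liver and HCC, was the most abundant, at 661 ± 135 CPM in siControl, 815 ± 77.8 CPM in siLATS1 and 647 ± 46.2 CPM in siLATS2 (adjusted p = 0.943 and 0.978, limma). HSPG2, which encodes perlecan, ran from 30.1 to 833 CPM within siControl, and SDC2, a syndecan, was at 441 ± 137, 343 ± 88.7 and 362 ± 66.1 CPM. Without siControl replicate 1, GPC4 was raised at the unadjusted threshold in siLATS1 (log2 fold change 0.76, adjusted p = 0.138) and in siLATS2 (0.69, adjusted p = 1), and passed after adjustment in neither. In that fit 2.80% of all tested genes were raised in siLATS1 and 0.225% in siLATS2.

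Known substrates of FAM20C showed the only call among the 4 lists on all samples. Of 18 listed genes 16 were in the files and 8 were tested, and 0 were raised and 1 lowered in siLATS1 against siControl, where 0.690% of all tested genes were lowered, with 0 called in the other contrasts. The gene was AHSG, which encodes the plasma protein fetuin-A and is made by hepatocytes. It was at 61.2 ± 27.9 CPM in siControl, 28.9 ± 5.56 CPM in siLATS1 and 44 ± 7.03 CPM in siLATS2. AHSG was lowered in siLATS1 at the unadjusted threshold (log2 fold change -0.95, SE 0.36) but not after adjustment (adjusted p = 0.718, limma), and its siControl and siLATS1 ranges, 30.3 to 84.8 and 22.6 to 33.0 CPM, overlapped.

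Without siControl replicate 1, 2 of 7 tested substrates were lowered at the unadjusted threshold in siLATS1 and 1 of 7 in siLATS2. AHSG was lowered in both, at -1.32 in siLATS1 (adjusted p = 0.0596, limma) and at -0.75 in siLATS2 (adjusted p = 1). The other gene lowered in siLATS1 is not reported here. The background of that fit was 2.51% of tested genes lowered in siLATS1 and 0.280% in siLATS2. The median of the substrates went from -0.01 to -0.32 in siLATS1 and from 0.14 to -0.12 in siLATS2. These medians cover different sets, with 8 substrates tested on all samples and 7 without siControl replicate 1. SPP1, which encodes osteopontin, was under the fold threshold, at 222 ± 6.02 CPM in siControl, 167 ± 25.6 CPM in siLATS1 and 225 ± 16.7 CPM in siLATS2 (log2 fold change in siLATS1 -0.42, adjusted p = 0.536, limma). Against siLATS2 its log2 fold change in siLATS1 was -0.44 (adjusted p = 0.637). P4HB, the protein disulfide isomerase of the endoplasmic reticulum, was the most abundant substrate, at 967 ± 420, 939 ± 212 and 1050 ± 118 CPM, with overlapping groups. Among substrates of bone and tooth, DMP1, DSPP and AMBN had at most 2 reads in any sample, whereas ENAM, of enamel, had 41 to 108 reads and was tested, with a log2 fold change of 0.26 in siLATS1 against siControl.

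**Figure D3:**
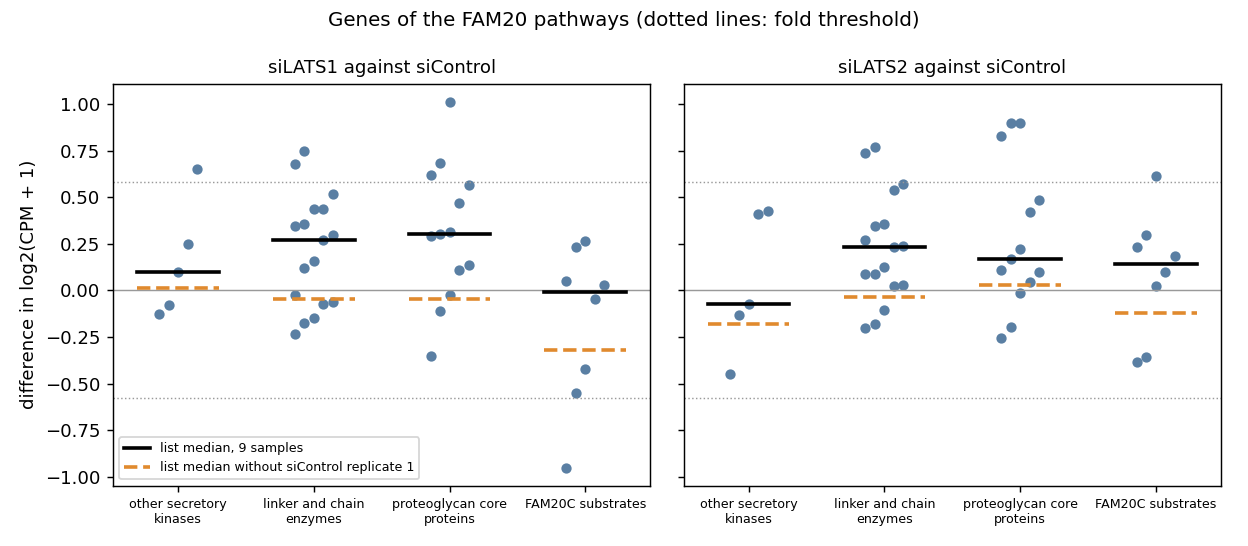
Difference in log2(CPM + 1) against siControl for the tested genes (points) of the 4 lists, in siLATS1 (left) and siLATS2 (right), with the list median on all 9 samples (black) and without siControl replicate 1 (dashed). The dotted lines mark the fold threshold of 0.58, and the lowest point in siLATS1 is AHSG at -0.95. Without siControl replicate 1 the medians of linker and chain enzymes moved from 0.27 to -0.05 in siLATS1.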

How the data were processed

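RNA-seq was made from Huh7 cells with a stranded total RNA kit. The authors mapped single-end reads to hg19 (GRCh37) with STAR, keeping unique hits, counted reads in exons of RefSeq genes (QuasR) and deposited CPM per gene. Each file also held 1 row with neither identifier nor value, which was left out (0% of reads). All CPM values (100%) were whole multiples of the worth of 1 read within 0.01 read, so the reads and the depth could be recovered. Gene symbols came from RefSeq for 20474 of 20575 identifiers, and coordinates from GENCODE on GRCh37. GC content was that of the longest coding transcript, with a value for 91.8% of tested genes.

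The 12901 genes that reached 1 CPM in 3 or more samples were fitted with limma 3.58.1 in R 4.3.3 on log2(CPM + 1), after TMM scaling with edgeR 4.0.16, with a mean-variance trend, 1 mean per group and Benjamini-Hochberg adjustment over all of them. Alternatives were other scalings, a pseudocount of 0.1, other filters, the replicate block, only the 6 samples compared, no trend, edgeR and DESeq2 1.42.0 on the reads, and leaving out each sample. The scripts were tested on simulated data. Scaling by TMM factors without weights, unfiltered edgeR and DESeq2 for FAM20C, and gene lists without siControl replicate 1 were added after seeing the data. Exact permutation tests were run with SciPy 1.17.1. A test planned for FAM20A in siLATS2 against siControl is not given, since the siControl samples were used in its choice.

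The members and gene lists were chosen with earlier results of these data known. Named genes are the members, LATS1, PRKAR1A, in each list those past the unadjusted threshold in any contrast and the 3 most abundant, the 5 genes most like each fitted member, and the genes next to FAM20A in fold change. XYLT1, XYLT2, PXYLP1, ENAM and markers past the threshold, genes called without siControl replicate 1 and genes near 0 were named after their values were seen. DIPK1C, DIPK2B, FGF23, AMELX and ACAN of the lists were not analysed here. A gene that the rule for named genes would add is not reported here.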

Additional observations from a re-analysis of the deposited data

How the results depend on the processing

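FAM20A kept its sign in each contrast under all 20 alternatives. Without siControl replicate 1, FAM20B changed sign against siControl in both siLATS1 and siLATS2. Its ranges without single samples were -0.40 to 0.04 in siLATS1 and -0.29 to 0.13 in siLATS2. Between siLATS1 and siLATS2 it changed sign in 2 fits without single samples (-0.23 to 0.073). FAM20C, which rests on few reads, was taken without single samples as the log2 ratio of mean CPM, with no pseudocount. It ranged from 0.66 to 2.38 in siLATS1 and from -1.02 to 0.68 in siLATS2 against siControl. On log2(CPM + 1) with no filter it was at 0.39 between siLATS1 and siLATS2, where the pseudocount outweighs its values. In siLATS1 against siControl 9 genes passed after adjustment, but 0 with the replicate block, 0 with only the 6 samples compared, 5 with edgeR, 166 with DESeq2 and 0 to 34 without single samples, 34 without siControl replicate 1. At the unadjusted threshold, 334 genes became 527 with DESeq2 and 219 to 684 without single samples (684 without siControl replicate 1, 219 without siLATS1 replicate 3). Between siLATS1 and siLATS2, 0 genes after adjustment became 3 with no filter, 100 with DESeq2 and 0 to 20 without single samples. In siLATS2 against siControl, 29 genes at the unadjusted threshold became 62 with a pseudocount of 0.1, 68 with edgeR, 70 with DESeq2 and 10 to 68 without single samples. The cause was not tested. With the CPM as deposited, the median of all genes in siLATS1 against siControl moved from -0.01 to 0.10, and raised genes made up 88.4% of calls in place of 73.4% (83.3% for 72.4% in siLATS2, and 83.4% for 72.1% between siLATS1 and siLATS2). FAM20A was at 1.69 and FAM20B at -0.14 there. Replicate numbers did not pair the samples throughout. Deviations from the group means correlated above 0.1 in 5 of 9 same-numbered pairs (-0.875 to 0.920). The pairs of replicate 3 were all high (0.832 to 0.863). In 7 of 18 comparisons of a sample with another group, its own number was best. Whether part of the samples shared a batch was not tested. With the replicate block, the log2 fold changes were 1.57 for FAM20A in siLATS1 and 0.47 in siLATS2. Calls of FAM20A are not given, because it was chosen on siLATS1 against siControl. No call changed in the comparisons of FAM20B that were tested. Depth limits FAM20C, with 2 to 21 reads per sample, but not FAM20A or FAM20B, with at least 310.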
